A study of Mus musculus with 12 samples.

Results

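Transcripts of 10 mouse genes that encode fatty acid desaturases and fatty acid elongases were followed in liver: Scd1, Scd2, Fads1, Fads2, Fads3, Elovl1, Elovl2, Elovl3, Elovl5 and Elovl6. They were taken by gene name from a table of raw RNA sequencing counts for 54532 genes, in which each of the 10 has 1 row. The study asked how ANGPTL8, a secreted regulator of lipoprotein lipase made by liver and fat, bears on lipid metabolism in wild-type (WT) chow-fed mice. Every mouse liver had received an adenovirus 9 days earlier, the controls included, so no untreated liver enters a comparison. The ANG8 group received a virus for ANGPTL8 overexpression and Ad_GFP a control adenovirus. The shANG8 group received a virus for ANGPTL8 knockdown and shCtrl a control hairpin virus. Each group held 3 libraries. The sources used here state neither the viral promoter and the cells infected nor the age and sex of the mice.

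Desaturases place a double bond into an acyl chain bound to coenzyme A, and elongases (ELOVL proteins) start the cycle that lengthens the chain by a carbon pair in the endoplasmic reticulum. One branch serves saturated and monounsaturated chains: fatty acid synthase yields palmitate, ELOVL6 lengthens it to stearate, and SCD1 turns both into the monounsaturated chains of liver triglyceride. The other branch serves polyunsaturated chains from the diet, on which FADS2 and FADS1 alternate with ELOVL5 and ELOVL2. In liver many of these genes are known targets of SREBP-1c, an insulin-responsive transcription factor, and of LXR, the oxysterol receptor, and they are known to be lowered by dietary polyunsaturated fat.

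The libraries held 12537083 to 15144312 counts. Libraries of 1 group differed by more than counting noise. Nothing in the labels ties them to separate mice, so the p-values speak only for the spread among these libraries, and some of it may be technical. Angptl8 itself stood at 165, 314 and 172 CPM (TMM-scaled CPM, a depth-adjusted count) in ANG8 and at 96.8, 80.4 and 90.0 CPM in Ad_GFP, with no overlap (log2 fold change 1.28, SE 0.33, n = 3 and 3, edgeR adjusted p = 0.0201). It stood at 144, 143 and 79.2 CPM in shANG8 and at 340, 391 and 167 CPM in shCtrl, again with no overlap (-1.29, SE 0.33, edgeR adjusted p = 0.235). The overexpression call was lost without any 1 of the 3 Ad_GFP libraries, without ANG8 replicate 2 and with a mitochondrial covariate (edgeR adjusted p 0.0538 to 0.0973). The knockdown value passed in 4 of 21 alternative settings, among them without shCtrl replicate 3 (0.0335), with DESeq2 (0.00695) and without a low-count filter (1.87e-07). Without shCtrl replicate 1 its edgeR adjusted p was 0.592. Over 3 libraries each, Angptl8 averaged 217 ± 84.0 CPM in ANG8 and 299 ± 117 CPM in shCtrl (SD), whose libraries overlapped, and that pair was not tested. The species of the overexpressed sequence is not stated. The 12 hepatocyte markers were all detected in every group and summed to 26689.9 to 54242 CPM in ANG8, 50142 to 73961 CPM in Ad_GFP, 65474 to 93335 CPM in shANG8 and 70191 to 92123 CPM in shCtrl. Mitochondrially encoded genes took 22.5% to 43.8% of the counts in ANG8, 19.8% to 34.9% in Ad_GFP, 19.3% to 22.9% in shANG8 and 22.9% to 24.2% in shCtrl.

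In the deposited table, whose coordinates are those of the build GRCm38, 6 of the 10 genes lie on chromosome 19. Fads3 (10041548 to 10059671, plus strand), Fads2 (10064164 to 10101503, minus strand) and Fads1 (10182888 to 10196870, plus strand) form one cluster there. Scd2 (44293676 to 44306864, plus strand) and Scd1 (44394451 to 44407709, minus strand) form another, and Elovl3 follows at 46131897 to 46135307 on the plus strand. Elovl6 lies on chromosome 3 (129532355 to 129638495, plus strand), Elovl1 on chromosome 4 (118428093 to 118432953, plus strand), Elovl5 on chromosome 9 (77917364 to 77984519, plus strand) and Elovl2 on chromosome 13 (41182381 to 41220405, minus strand). The gene model of Fads2 in the table has 1508 bases of exon, against 3295 in GENCODE vM21, so its length-scaled level rests on a short model. The models of Fads1 (3456 against 4812), Elovl3 (1494 against 1975) and Fads3 (3269 against 3792) are also shorter, which bears on their length-scaled levels. Of the 50-base stretches in GENCODE transcripts, 4.56% of those of Scd1, 3.97% of those of Scd2 and 3.98% of those of Elovl6 also occur in another gene, mostly Scd3 for Scd1, Scd1 for Scd2 and the gene Gm11295 for Elovl6, and at most 0.152% of those of the other 7 genes do.

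The RefSeq promoter table (GRCm38.p6) held an entry for 6 of the 10 genes. The 250 bases before the start site are shown for the 3 elongases whose transcripts fell in ANG8 (Elovl5, Elovl6 and Elovl2) and for Elovl1, which was not called in any comparison. Capitals mark matches on either strand to 4 short motifs: CCAAT, the core of the NF-Y element; GGGCGG, the GC box; CACGTG, a palindromic E-box; and TCACNCCAC, the core of a sterol regulatory element.

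Elovl5: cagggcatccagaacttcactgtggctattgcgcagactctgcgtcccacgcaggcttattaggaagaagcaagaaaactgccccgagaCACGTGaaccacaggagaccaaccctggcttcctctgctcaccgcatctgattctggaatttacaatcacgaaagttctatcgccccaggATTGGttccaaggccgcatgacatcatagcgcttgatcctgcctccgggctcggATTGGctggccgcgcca
Elovl6: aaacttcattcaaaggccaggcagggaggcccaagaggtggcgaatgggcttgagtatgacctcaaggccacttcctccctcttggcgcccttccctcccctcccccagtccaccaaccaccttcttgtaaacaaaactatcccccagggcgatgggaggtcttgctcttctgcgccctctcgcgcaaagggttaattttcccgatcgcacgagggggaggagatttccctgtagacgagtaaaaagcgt
Elovl2: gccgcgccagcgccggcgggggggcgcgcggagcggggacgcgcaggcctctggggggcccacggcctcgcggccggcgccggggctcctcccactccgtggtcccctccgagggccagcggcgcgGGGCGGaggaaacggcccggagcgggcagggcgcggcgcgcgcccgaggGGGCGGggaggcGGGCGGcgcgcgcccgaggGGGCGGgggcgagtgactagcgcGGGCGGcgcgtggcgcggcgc
Elovl1: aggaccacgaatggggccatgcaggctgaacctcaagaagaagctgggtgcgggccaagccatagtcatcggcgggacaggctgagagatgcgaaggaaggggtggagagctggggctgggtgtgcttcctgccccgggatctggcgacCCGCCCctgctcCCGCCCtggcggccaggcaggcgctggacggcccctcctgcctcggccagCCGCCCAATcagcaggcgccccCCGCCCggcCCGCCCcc

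These windows lie at chr9:77917115-77917364 (plus strand, Elovl5), chr3:129532136-129532385 (plus strand, Elovl6, whose RefSeq start lies 31 bases from that of the table), chr13:41220404-41220653 (minus strand, Elovl2) and chr4:118427843-118428092 (plus strand, Elovl1). The Elovl5 window holds CCAAT on the reverse strand at 71 to 67 and at 17 to 13 bases before the start, and CACGTG at 161 to 156 bases before it. The Elovl2 window holds GGGCGG 5 times and none of the other motifs, and the Elovl6 window holds none of the 4. The Elovl1 window holds 5 GC boxes, all on the reverse strand, and 1 CCAAT at 35 to 31 bases before the start that overlaps the GC box at 39 to 34. Among 32536 distinct windows of that length in the table, 33.8% hold CCAAT, 33.0% hold GGGCGG, 6.04% hold CACGTG and 1.045% hold TCACNCCAC, which none of the 4 shown holds. The elongases that fell thus share no motif of these 4, and a match is only a description of the letters.

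Scd1 dominated the family. Per kilobase of gene model it stood at 411, 340 and 393 CPM per kb in ANG8 and at 762, 1120 and 805 CPM per kb in Ad_GFP. The level was 2365, 1975 and 2398 CPM per kb in shANG8 and 1054, 1256 and 2530 CPM per kb in shCtrl. By raw counts it ranked from 19 to 28 among the genes outside the mitochondrial genome in ANG8 libraries and from 7 to 20 in Ad_GFP libraries. Its rank was 4 in each of the 3 shANG8 libraries, and from 3 to 9 in shCtrl. The other 9 genes together reached 193 ± 16.6 CPM per kb in ANG8, 408 ± 64.6 in Ad_GFP, 605 ± 98.2 in shANG8 and 533 ± 89.1 in shCtrl (SD, n = 3 each). Of the summed length-scaled level of all 10, Scd1 held 66.3% ± 2.28 in ANG8, 68.2% ± 7.48 in Ad_GFP, 78.8% ± 1.40 in shANG8 and 73.4% ± 8.23 in shCtrl (SD, n = 3 each). In Ad_GFP the mean length-scaled levels after Scd1 were 133 CPM per kb for Elovl5, 79.2 for Fads1, 77.7 for Elovl2, 39.8 for Elovl6, 34.0 for Fads2, 21.6 for Elovl3, 17.3 for Elovl1, 4.52 for Fads3 and 1.07 for Scd2.

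**Figure D1:**
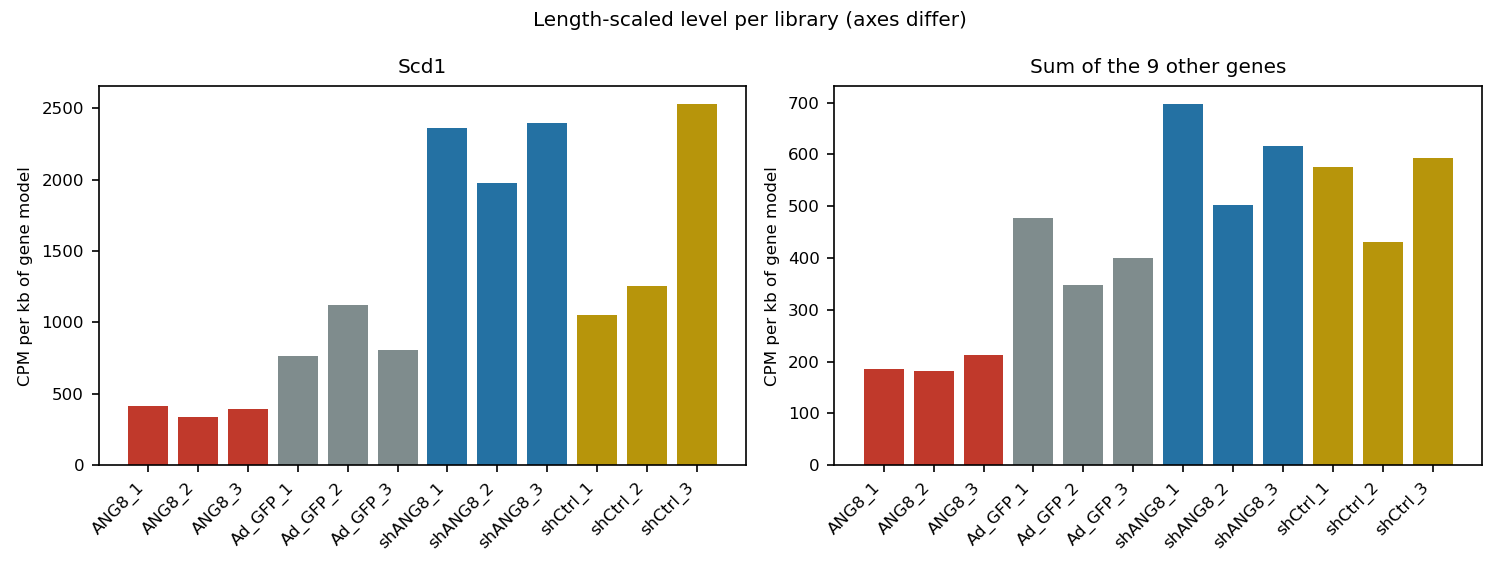
Length-scaled levels per library in CPM per kb of gene model, for Scd1 (left) and for the sum of the 9 other genes (right); bars are single libraries, colored by group, and the axes differ. The ANG8 libraries are lowest in both panels, and shCtrl replicate 3 reaches 2530 CPM per kb of Scd1, against 1054 and 1256 in the other shCtrl libraries.

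The overexpression comparison set ANG8 against Ad_GFP. The desaturase and the elongase of the monounsaturated branch, Scd1 and Elovl6, fell, as did 3 enzymes of the polyunsaturated branch, Fads1, Elovl5 and Elovl2, and Fads3. In all, 6 of the 10 genes fell and none rose, by edgeR's quasi-likelihood test with Benjamini-Hochberg adjustment over 14686 genes and a threshold of 0.05. Among all tested genes, 6.39% fell and 7.08% rose. The libraries of both groups did not overlap for 8 of the 10 genes, with 7 lower and 1 higher in ANG8, where 16.2% of all genes were lower and 17.9% higher without overlap. The median log2 fold change of the 10 was -1.12, against -0.00022 over all genes. The falls of the 6 called genes lay in a narrow band, from -0.96 for Fads3 to -1.39 for Elovl6.

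**Figure D2:**
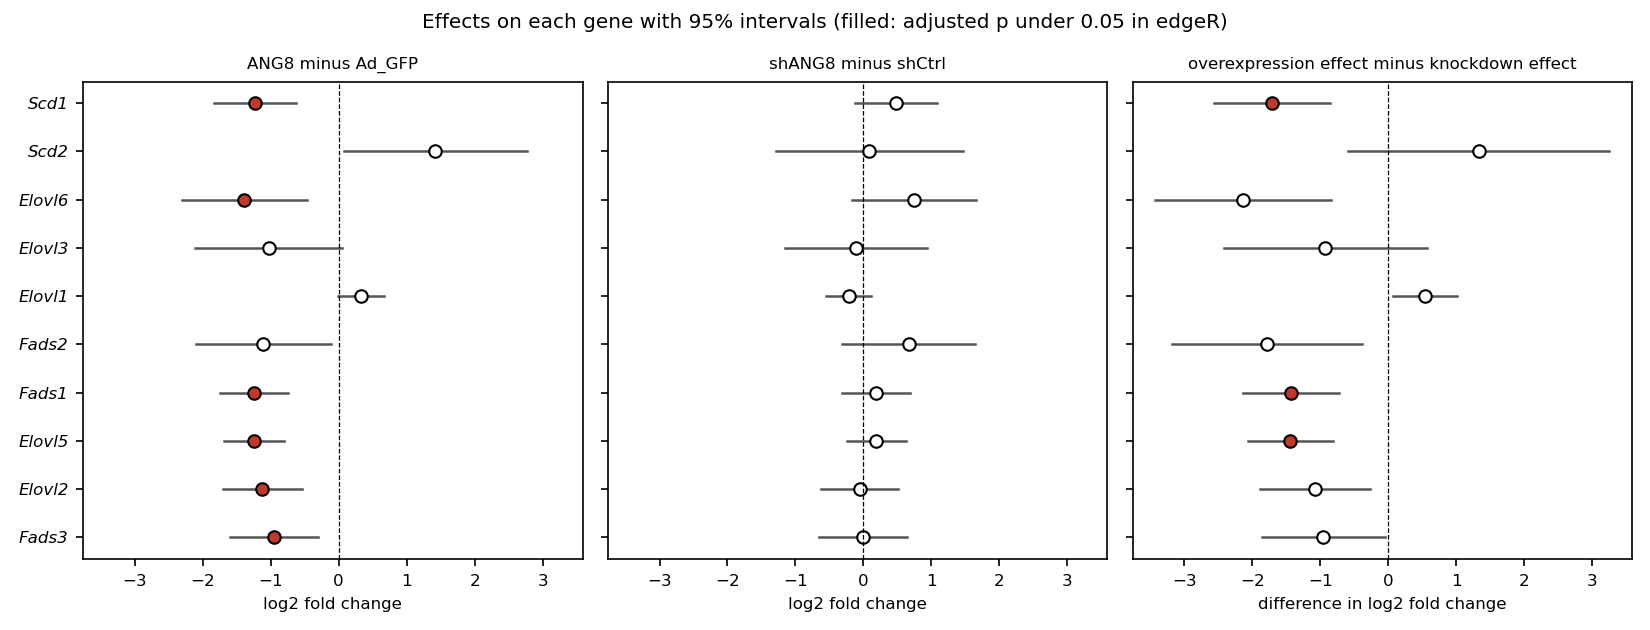
Log2 fold changes of the 10 genes with 95% intervals for ANG8 minus Ad_GFP (left), shANG8 minus shCtrl (middle) and the difference between both effects (right); filled circles passed an adjusted p of 0.05 in edgeR. The left panel holds 6 filled circles, all below 0, the middle panel holds 0 and the right panel holds 3.

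In the monounsaturated branch, Scd1, the main liver desaturase of stearate and palmitate, stood at 1987, 1645 and 1898 CPM in ANG8 and at 3684, 5417 and 3892 CPM in Ad_GFP. Every ANG8 library lay below every Ad_GFP library, and the fall was 1.23 on the log2 scale (SE 0.29, edgeR adjusted p = 0.0102), a ratio of 0.426 with a 95% interval of 0.279 to 0.649. Elovl6, the elongase of palmitate, stood at 116, 119 and 57.7 CPM in ANG8 and at 191, 387 and 189 CPM in Ad_GFP, without overlap. Its fall of 1.39 (SE 0.42) passed narrowly (edgeR adjusted p = 0.0488). Scd2, the desaturase form known from brain and other extrahepatic tissues, had 91 to 420 raw counts in ANG8 and 55 to 126 in Ad_GFP. Its levels were 14.1, 7.46 and 25.5 CPM in ANG8 and 4.998, 4.07 and 8.47 CPM in Ad_GFP. These overlapped, and the log2 fold change of 1.42 (95% interval 0.08 to 2.77) was not called (edgeR adjusted p = 0.156), so Scd2 has a point estimate of the opposite sign to that of Scd1. Scd2 passed in 1 of 21 alternative settings, with replicate number as a block (1.34, edgeR adjusted p = 0.00584).

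Among the elongases of saturated and very long chains, Elovl3 is known in mouse liver for its male-biased and daily rhythmic expression. It stood at 21.2, 12.2 and 14.0 CPM in ANG8 and at 45.9, 28.3 and 22.7 CPM in Ad_GFP. Although the groups did not overlap, the log2 fold change of -1.03 (95% interval -2.11 to 0.05) was not called (edgeR adjusted p = 0.201). Fitted on ANG8 and Ad_GFP alone, it was -1.03 and passed (edgeR adjusted p = 0.0331). Elovl3 passed in 2 of 21 alternative settings, whose values ran from -1.30 to -0.69. Beside it, 7 of 10 other male-biased liver genes fell, and that list summed to 3984 to 6542 CPM in ANG8 and 5583 to 8719.98 CPM in Ad_GFP, with Moxd1 at 0 in all 3 ANG8 libraries. Of 10 female-biased liver genes, 6 were tested and edgeR called 0 (median log2 fold change 0.13), while that list summed to 388 to 816 CPM in ANG8 and 40.4 to 289 CPM in Ad_GFP, without overlap. Cyp3a41a was at 0 in both groups and Sult2a1 in ANG8. The part of either list in the Elovl3 values was not tested. Elovl1, a broadly expressed elongase that makes the very long chains of sphingolipids, stood at 62.8, 53.2 and 62.1 CPM in ANG8 and at 49.98, 41.2 and 50.7 CPM in Ad_GFP. It is the 1 gene of the 10 with every ANG8 library above every Ad_GFP library, but the log2 fold change of 0.33 (95% interval -0.0046 to 0.66) was not called (edgeR adjusted p = 0.188). Elovl1 overlaps Cdc20, a cell cycle gene on the opposite strand, which had 161 to 280 counts in ANG8 and 54 to 61 in Ad_GFP. The strand setting of the counting is not given, so reads of the overlapping part cannot be told apart, and the part of Cdc20 in the Elovl1 values was not tested. Elovl6 likewise overlaps the antisense gene Gm35986, which had 17 to 28 counts in ANG8 and 88 to 207 in Ad_GFP. Gm35986 itself fell (log2 fold change -2.49, SE 0.39, edgeR adjusted p = 0.000755). Elovl6 had 952 to 6521 counts over all libraries, and the part of Gm35986 in the Elovl6 values was not tested.

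In the polyunsaturated branch, Elovl5, which lengthens the first desaturation products, had the smallest p of the 10. It stood at 199, 204 and 187 CPM in ANG8 and at 536, 438 and 429 CPM in Ad_GFP. The ANG8 libraries lay close together, with a coefficient of variation of 4.56%, and far below Ad_GFP: the fall was 1.25 on the log2 scale (SE 0.21, edgeR adjusted p = 0.00124), a ratio of 0.420 with a 95% interval of 0.309 to 0.572. Fads1, the delta-5 desaturase that makes arachidonate, stood at 100.2, 97.0 and 149 CPM in ANG8 and at 329, 218 and 275 CPM in Ad_GFP. It fell by 1.24 (SE 0.24, edgeR adjusted p = 0.00277), again with no overlap. Elovl2, which serves the last elongation steps toward docosahexaenoate, stood at 123, 138 and 164 CPM in ANG8 and at 387, 181 and 357 CPM in Ad_GFP. The lowest Ad_GFP library, replicate 2, came close to the ANG8 libraries, and the fall was 1.12 (SE 0.27, edgeR adjusted p = 0.0130).

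Fads2, the delta-6 desaturase and entry step of this branch, did not pass. It stood at 13.1, 17.9 and 39.9 CPM in ANG8 and at 69.8, 26.1 and 57.7 CPM in Ad_GFP, so that ANG8 replicate 3 lay above Ad_GFP replicate 2. The log2 fold change of -1.11 (95% interval -2.11 to -0.12, edgeR adjusted p = 0.134) is close in size to those of Fads1 and Elovl2. Without ANG8 replicate 3 it was -1.75 and passed (edgeR adjusted p = 0.0190). With replicate number as a block it was -1.15 and also passed (edgeR adjusted p = 0.0253). Fads2 passed in 2 of 21 alternative settings. Over the 21 settings its log2 fold change ran from -1.75 to -0.55. The smallest fall, -0.55, came with mitochondrial share as a covariate. Leaving out Ad_GFP replicate 1 or ANG8 replicate 1 gave -0.82 each. These smaller falls were not called. Fads3, a desaturase of sphingoid bases and of vaccenate, stood at 6.88, 7.21 and 8.73 CPM in ANG8 and at 19.0, 9.18 and 16.2 CPM in Ad_GFP, from 88 to 300 raw counts. Its fall of 0.96 (SE 0.31) passed narrowly (edgeR adjusted p = 0.0477).

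**Figure D3:**
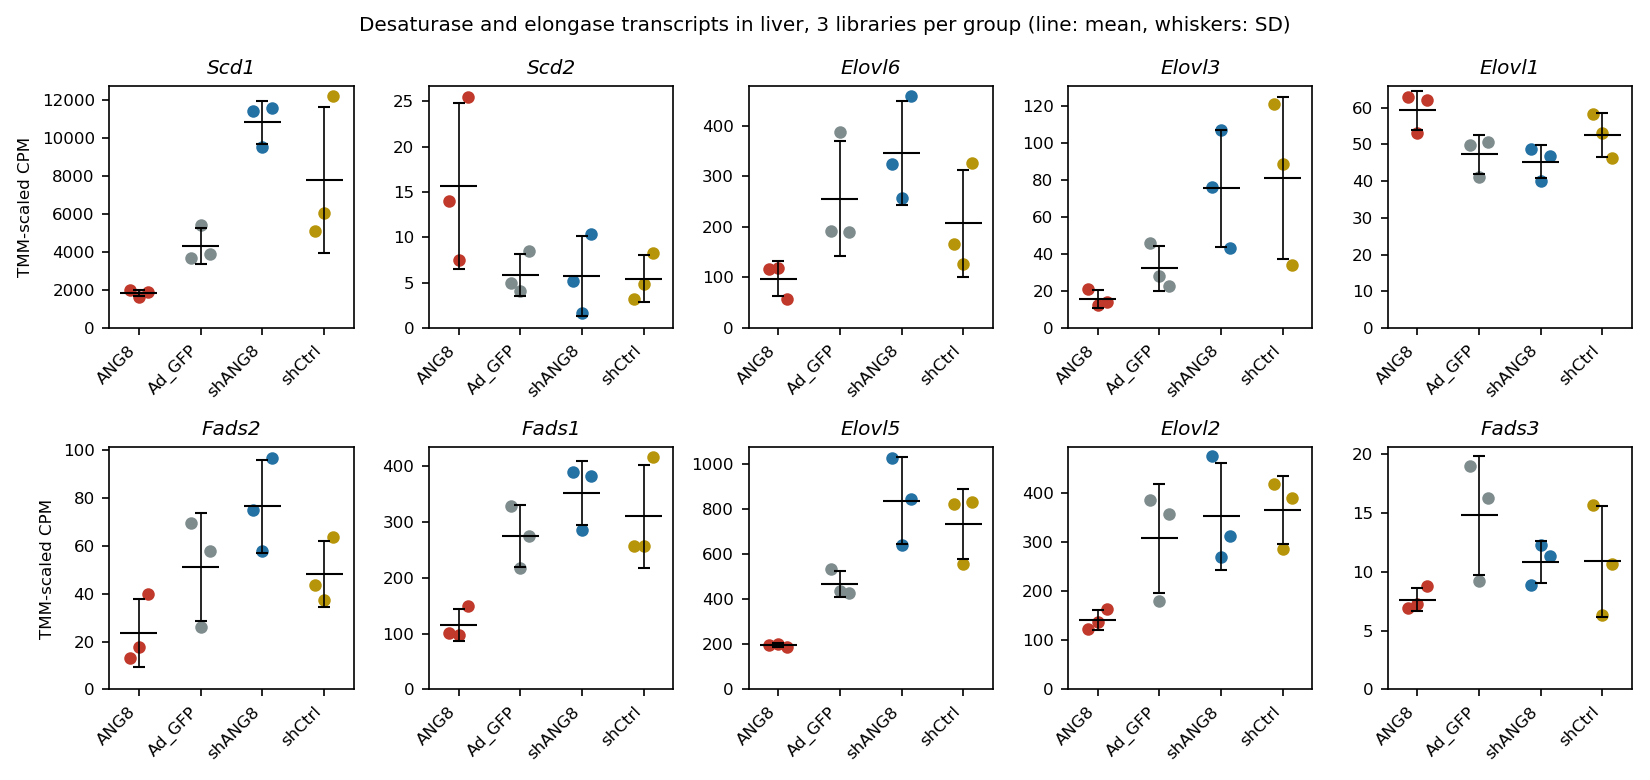
TMM-scaled CPM of each gene in every library; points are single libraries, the line is the group mean and whiskers are the SD of 3 libraries, with a separate axis from 0 in each panel. For Scd1, Elovl6, Elovl3, Fads1, Elovl5 and Elovl2 all 3 ANG8 points lie below the 9 other points.

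Over all 4 groups, 6 genes (Scd1, Fads1, Elovl2, Elovl3, Elovl5 and Elovl6) had all ANG8 libraries below all 9 other libraries, as did 8.55% of all tested genes. None of the 10 had all ANG8 libraries above the others, as 11.2% of all genes did. The calls for Fads1 and Elovl5 passed in all 21 alternative settings. The Scd1 call was lost in 1, without Ad_GFP replicate 2 (edgeR adjusted p = 0.0525). The Elovl2 call was lost in 4: without Ad_GFP replicate 1 (0.0630), ANG8 replicate 1 (0.0663) or ANG8 replicate 2 (0.0524), or when mitochondrial share entered the fit (0.0710). The Fads3 call passed in 10 of 21 settings (adjusted p 0.00233 to 0.192) and the Elovl6 call in 8 of 21 (0.0135 to 0.181), so both rest on the choice of setting. The number of the 10 called fell to 3 without Ad_GFP replicate 1, without ANG8 replicate 1 or without ANG8 replicate 2, with 1080, 995 and 1307 genes called in all in place of 1978.

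Other measures moved with the same groups. Of the 12 hepatocyte markers, 10 fell in ANG8 (median log2 fold change -1.25). Among 12 markers of macrophages and Kupffer cells, 10 rose, and their summed level was 1101 to 1424 CPM in ANG8 and 443 to 605 CPM in Ad_GFP, with none at 0. Of the 12 T cell and NK cell markers, 7 rose and 1 fell, with sums of 145 to 165 CPM in ANG8 and 55.4 to 78.6 CPM in Ad_GFP, and again none at 0. Endothelial, stellate and cholangiocyte markers had 0 calls in edgeR, and 1 of 4 tested adipocyte markers fell. In bulk liver, fewer cells of a type and less RNA per cell cannot be told apart. The part of these marker changes, and of the mitochondrial share, in the desaturase and elongase values was not tested beyond the covariate fit above.

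The knockdown comparison set shANG8 against shCtrl. EdgeR called 0 of the 10 genes, with 0 at an unadjusted p under 0.05, and DESeq2 and limma voom also called 0. Across all genes 0.191% were called, 28 in number, with 0.0613% higher and 0.129% lower. Scd1 stood at 11436, 9553 and 11595 CPM in shANG8 and at 5098, 6075 and 12234 CPM in shCtrl. The third shCtrl library lay above all shANG8 libraries while the other two lay far below them, so the groups overlapped. The log2 fold change was 0.48 (95% interval -0.12 to 1.08, edgeR adjusted p = 0.717). Without shCtrl replicate 3 it was 0.96 (edgeR adjusted p = 0.261). It shrank to 0.24 without shCtrl replicate 1 and to 0.30 without shCtrl replicate 2.

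Elovl6 stood at 323, 257 and 458 CPM in shANG8 and at 166, 127 and 327 CPM in shCtrl, with a log2 fold change of 0.75 (95% interval -0.16 to 1.65). Replicate 3 was again the highest shCtrl library, and without it the value was 1.24 (edgeR adjusted p = 0.488). Leaving out 1 library gave Elovl6 values from 0.47 to 1.24. Fads2 stood at 75.2, 58.1 and 96.8 CPM in shANG8 and at 43.8, 37.4 and 63.8 CPM in shCtrl (log2 fold change 0.67, 95% interval -0.31 to 1.65). For Fads1 the log2 fold change was 0.18 (95% interval -0.31 to 0.68), for Elovl5 0.19 (-0.25 to 0.63) and for Elovl2 -0.05 (-0.62 to 0.52). These intervals leave out a change as large as the fall of Fads1, Elovl5 or Elovl2 in ANG8, in either direction. The remaining estimates were 0.09 for Scd2 (-1.29 to 1.47), -0.0068 for Fads3 (-0.65 to 0.64), -0.22 for Elovl1 (-0.55 to 0.12) and -0.11 for Elovl3 (-1.15 to 0.93), with Elovl3 spanning 34.2 to 121 CPM in shCtrl. Groups overlapped for all 10 genes, where 6.16% of all genes were higher and 6.78% lower without overlap.

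Whether the effects of both viruses differ was tested as the overexpression effect minus the knockdown effect, which uses the same 12 libraries as the comparisons above. It was -1.71 for Scd1 (SE 0.41, edgeR adjusted p = 0.0191), -1.43 for Fads1 (SE 0.33, adjusted p = 0.0181) and -1.44 for Elovl5 (SE 0.29, adjusted p = 0.00946). These were 3 of the 10, all lower, where 6.62% of all genes were called, 2.9% lower and 3.72% higher. Elovl6 had the largest difference, -2.14 (SE 0.59), which just missed the threshold (edgeR adjusted p = 0.0526). For Fads2 it was -1.78 (adjusted p = 0.125), for Elovl2 -1.07 (0.106), for Fads3 -0.95 (0.205), for Elovl3 -0.92 (0.477), for Elovl1 0.54 (0.158) and for Scd2 1.33 (0.417). The Elovl5 call passed in all 20 alternatives. The Scd1 call was lost without Ad_GFP replicate 2 (edgeR adjusted p = 0.0562), ANG8 replicate 2 (0.0501), shCtrl replicate 1 (0.0506) or shCtrl replicate 2 (0.0665). The Fads1 call was lost without ANG8 replicate 1 (edgeR adjusted p = 0.0595), ANG8 replicate 2 (0.0532), shCtrl replicate 1 (0.0538) or shCtrl replicate 2 (0.0634). The count of 3 fell to 1 without ANG8 replicate 2, shCtrl replicate 1 or shCtrl replicate 2.

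The control viruses were set against each other as shCtrl minus Ad_GFP. EdgeR called 0 of the 10 genes and 0% of all genes, with 3 of the 10 and 1286 of all at an unadjusted p under 0.05, while DESeq2 called 0 of the 10 and 42 genes in all, and limma voom called 0 and 0. The 3 genes were Elovl5, Scd1 and Elovl3. Angptl8 itself stood higher in every shCtrl library than in any Ad_GFP library (log2 fold change 1.75, SE 0.33, edgeR adjusted p = 0.338). It passed in 4 of 21 alternative settings, among them with DESeq2 (0.000106), without a low-count filter (1.16e-12) and without shCtrl replicate 3 (edgeR adjusted p = 0.0446). Elovl5 stood at 821, 556 and 831 CPM in shCtrl and at 536, 438 and 429 CPM in Ad_GFP, the 1 gene of the 10 without overlap (log2 fold change 0.65, 95% interval 0.22 to 1.09, edgeR adjusted p = 0.442). Across all genes, 7.66% were higher and 8.45% lower in shCtrl without overlap. For Scd1 the value was 0.85 (0.24 to 1.45), or 0.38 without shCtrl replicate 3, and for Elovl3 1.33 (0.27 to 2.39). Scd1 thus ordered ANG8 lowest, then Ad_GFP, shCtrl and shANG8. Only the lowest step, from ANG8 to Ad_GFP, was free of overlap. Fads1 and Elovl5 had the same order. For Elovl5 the step from Ad_GFP to shCtrl was also free of overlap. Angptl8 itself had a different order, with means of 89.1 CPM in Ad_GFP, 122 in shANG8, 217 in ANG8 and 299 in shCtrl. Only its step from shANG8 to ANG8 was free of overlap.

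Likeness across the 12 libraries was measured as the mean absolute difference of log2 CPM after each gene was centred on its own mean, and is given as a description. Fads1 lay 0.24 from Elovl2, 0.24 from Elovl5 and 0.29 from Fads2. Scd1 lay closest to Elovl5, at 0.32, and then to Fads1, at 0.44. Scd2 lay 0.70 to 1.59 from every other gene of the 10. Elovl3 lay 0.55 to 1.59 from them and Elovl1 0.50 to 0.99. The coefficient of variation within a group reached 76.0% for Scd2 (shANG8) and 53.9% for Elovl3 (shCtrl).

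**Figure D4:**
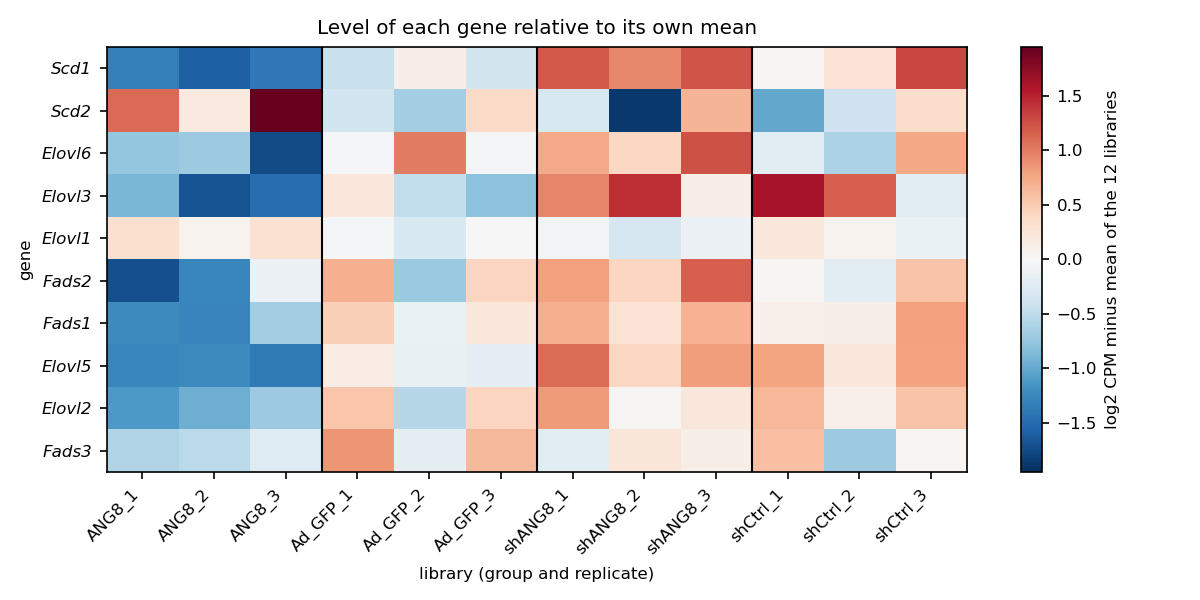
Log2 CPM of each gene in each library minus the mean of that gene over the 12 libraries (color scale), with libraries grouped by virus. Most genes are below their mean in all 3 ANG8 libraries, while Scd2 and Elovl1 are above theirs, and Elovl3 is high in shCtrl replicates 1 and 2 but not in replicate 3.

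For each of the 6 genes called in ANG8, near genes by the same measure were named. They were Macrod1 (0.202) and Acss2 (0.228) for Scd1, Apoa2 (0.0939) and Rbp4 (0.0968) for Fads1, and Kyat3 (0.151) for Elovl2. For Elovl5 they were Hsd11b1 (0.211) and Wfdc21 (0.212), for Elovl6 Sult1d1 (0.245) and Syde2 (0.277), and for Fads3 Sarnp (0.233) and Fgd6 (0.239). The median over 10906 genes compared ranged from 0.488 for Fads3 to 0.878 for Scd1. Acss2, which makes acetyl-CoA from acetate, is also in the list of fatty acid synthesis genes below, and Apoa2 is in the hepatocyte marker list above.

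Of 8 other desaturase and elongase genes, 3 were tested. Elovl7, an elongase of long-chain acyl-CoA, had 74 to 200 raw counts in ANG8 and 2 to 8 in Ad_GFP. Its levels were 5.36, 6.07 and 12.1 CPM in ANG8 and 0.443, 0.148 and 0.538 CPM in Ad_GFP, with 0.157 to 0.281 CPM in shANG8 and 0.152 to 0.342 CPM in shCtrl. It passed the low-count filter through the ANG8 libraries alone and so had to differ, and its log2 fold change of 4.34 is a description with no test. Per kilobase it reached 1.96 ± 0.928 CPM per kb in ANG8 (SD, n = 3), against 55.8 ± 2.55 CPM per kb for Elovl5 in the same libraries. ANG8 replicate 3 was the highest library for both Elovl7 and Scd2, and the macrophage and T cell markers above are also highest in ANG8, but their part in these values was not tested. Fads6 (log2 fold change -0.25, 95% interval -0.59 to 0.09) and Degs1, the ceramide desaturase (0.17, -0.14 to 0.48), were not called. Scd3, Scd4, Elovl4, Degs2 and Fa2h had at most 15 counts in any library and were not tested.

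Genes that act around these enzymes were counted in lists chosen with earlier results known. Beside these counts, 6.39% of all tested genes fell in ANG8 and 7.08% rose. Of 12 tested genes of the elongation cycle and its electron supply, 2 fell in ANG8 and 10 were not called, with a list median of 0.02. Tecr, the enoyl reductase that closes each elongation round, fell to 105 ± 27.0 CPM in ANG8, against 225 ± 15.1 CPM in Ad_GFP (SD, n = 3 each, log2 fold change -1.09, SE 0.21). Cyb5r3, the cytochrome b5 reductase that passes electrons to desaturases, fell to 690.4 ± 55.6 CPM in ANG8, against 1029 ± 81.3 CPM in Ad_GFP (-0.58, SE 0.18, edgeR adjusted p = 0.0446). Upstream, 6 of 11 genes that supply and build palmitate fell (list median -0.80). Fasn, the synthase itself, fell to 259.5 ± 26.3 CPM in ANG8, against 899 ± 114 CPM in Ad_GFP, while Acly fell by 1.84 and Pklr by 2.40 on the log2 scale. Of 23 regulators, 4 fell, and the list median was -0.15. Among them were Srebf1, which encodes SREBP-1 (-0.94, SE 0.19, edgeR adjusted p = 0.00319), Mlxipl, which encodes ChREBP (-1.27, SE 0.34, adjusted p = 0.0271), and Thrsp, a lipogenic cofactor (-2.05, SE 0.27).

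Downstream lists were mixed. Of 9 tested acyl-CoA synthetases and fatty acid transport proteins, 5 fell and 1 rose, with Slc27a5 (-1.44), Slc27a2 (-0.995) and Acsl3 (-1.06) as the falls of smallest p. Of 10 genes of the peroxisomal steps that complete docosahexaenoate synthesis, 3 fell, among them Abcd3 (-0.95) and Scp2 (-0.71). Of 16 tested genes of acyl chain remodelling in phospholipids, 2 rose, the lysophospholipid acyltransferases Lpcat4 (1.38, SE 0.32) and Lpcat2 (1.11, SE 0.28). Of 11 tested genes of very long chain and ceramide synthesis, 1 rose, Sptlc2, a subunit of serine palmitoyltransferase (0.71, SE 0.19). Among all tested genes 13.5% were called in either direction, 6.39% lower and 7.08% higher. In shANG8 against shCtrl, edgeR called 0 genes of these 7 lists.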

How the data were processed

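Liver RNA libraries (12, in 4 groups of 3) are described by 1 deposited table of raw counts per gene, deposited by the authors without normalization. Per the submitters' processing notes, the tools were featureCounts 1.5.0-p3 and CASAVA 1.8.2, with mm9 as the build. The sources used here give no aligner or strand setting. Of 54409 gene identifiers found in GENCODE vM21 (GRCm38), 98.3% have identical coordinates there, so the deposited coordinates are given as GRCm38. The deposited gene length, another column of the table, served for levels per kilobase.

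Counts were tested with edgeR 4.0.16 in R 4.3.3: filterByExpr (14686 genes kept), TMM scaling, and a robust quasi-likelihood fit to all 12 libraries with 4 group means. The SE is the absolute log2 fold change divided by the square root of F, and 95% intervals use the fit's degrees of freedom. Benjamini-Hochberg adjustment ran over the 14686 genes. Alternatives were DESeq2 1.42.0, limma 3.58.1 voom, other scalings, no filter, covariates and leaving out each library. Centred log2 CPM used a prior count of 2. The test code was checked on simulated data with known changes.

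Total counts per library, 12537083 to 15144312, set the precision. The 10 genes and all lists were chosen with earlier results of these data known. Named list genes are the 3 called members with the smallest p in each list. The nearest genes are the 2 smallest differences among genes whose mean log2 CPM reached 1 and with no predicted-gene symbol. Some genes that these rules name are not reported here.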

Additional observations from a re-analysis of the deposited data

Results flagged for a closer look

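The overexpression effect and the knockdown effect differed by an interaction test in edgeR for 3 of the 10 desaturase and elongase genes and for Angptl8. Among all tested genes 6.62% were called, 2.9% lower and 3.72% higher. The Scd1 and Fads1 calls were each lost in 4 of 20 alternatives, while the Elovl5 call passed in all 20. The overexpression effect minus the knockdown effect was -1.71 for Scd1 (adjusted p = 0.0191), -1.43 for Fads1 (adjusted p = 0.0181) and -1.44 for Elovl5 (adjusted p = 0.00946). It was 2.58 for Angptl8 (adjusted p = 0.00700), the target of both viruses, so a difference there is built into the design. For Elovl7 it was 4.40, given as a description with no test, since this gene had 2 to 5 counts in the hairpin groups and passed the low-count filter through the ANG8 libraries alone.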

How the results depend on the processing

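Of 21 alternatives to the overexpression count of 6 genes, the 9 that keep all libraries gave 4 to 8, and leaving out 1 library gave 3 to 6. The knockdown count stayed at 0 in every alternative. The difference count of 3 became 5 without a low-count filter and 6 with replicate number as a block, while leaving out 1 library gave 1 to 4. Over all genes, the difference had 972 calls in the main fit, 1510 without the filter and 1550 with the block. Fitting only the groups compared has no version for the difference, which needs all 4. The control comparison count of 0 became 1 without a filter (Scd1, 0.88, edgeR adjusted p = 0.0413), where 96 genes were called in all in place of 0. Correlations of deviations between same-numbered libraries were -0.067, 0.116 and 0.149 in ANG8 and Ad_GFP. They ran from 0.034 to 0.186 in shANG8 and shCtrl and from -0.038 to 0.081 in Ad_GFP and shCtrl. Those of Ad_GFP with shANG8, which no comparison sets against each other, ran from 0.172 to 0.255. In each arm, 4 of 6 libraries correlated best with their own number. These low and mixed values do not decide whether the numbers mark pairs. With the replicate block, 8 of the 10 genes were called under overexpression, 7 lower and 1 higher: Scd2 was called higher (1.34, adjusted p = 0.00584), Fads2 (0.0253) and Elovl3 (0.0452) lower, and Elovl6 lost its call (0.124). Under the block Angptl8 also passed in the knockdown (0.0365) and control comparisons (0.0421). Signs turned for the 11 effects below, none of them called in a setting that turned its sign. In shANG8 against shCtrl, Scd2 was -0.11 with voom, -0.087 with the replicate block and -0.092 with the mitochondrial covariate, and Fads3 was 0.078 with voom and 0.070 with the block. Leaving out 1 library there gave ranges of -0.65 to 0.52 (Scd2), -0.30 to 0.35 (Fads3), -0.35 to 0.10 (Elovl2), -0.48 to 0.29 (Elovl3), -0.0032 to 0.35 (Elovl5) and -0.28 to 0.29 (Elovl7). In shCtrl against Ad_GFP it gave -0.53 to 0.26 (Scd2), -0.084 to 0.33 (Fads1), -0.38 to 0.21 (Fads2), -0.0061 to 0.45 (Elovl2) and -0.79 to 0.14 (Elovl6). The cause of these shifts was not tested. Counts as low as 2 for Elovl7 outside ANG8 and 21 for Scd2 limit those ratios.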

Other observations

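Ratios within a library do not depend on its scaling and are given as values only. Per kilobase, Scd1 over Scd2 was 164 ± 82.4 in ANG8 and 949.6 ± 502 in Ad_GFP, with no overlap (84.0 to 249 in ANG8 and 518 to 1500 in Ad_GFP). It was 3417 ± 2754 in shANG8 and 1626 ± 198 in shCtrl (SD, n = 3 each). Elovl5 over Elovl2 was 1.59 ± 0.282 in ANG8 and 1.88 ± 0.739 in Ad_GFP, which overlapped, and 2.72 ± 0.312 in shANG8 and 2.26 ± 0.114 in shCtrl, where every shANG8 library (2.43 to 3.05) lay above every shCtrl library (2.18 to 2.39). Fads1 over Fads2 was 2.45 ± 0.853 in ANG8 and 2.59 ± 0.906 in Ad_GFP, and 2.04 ± 0.283 in shANG8 and 2.80 ± 0.228 in shCtrl, without overlap between shANG8 and shCtrl. Scd1 over Elovl6 ran from 18.3 to 43.7 in ANG8 and from 18.6 to 27.3 in Ad_GFP. It ran from 33.6 to 49.4 in shANG8 and from 40.7 to 63.6 in shCtrl. Scd1 over Elovl5 ran from 5.87 to 7.41 in ANG8 and from 5.01 to 9.01 in Ad_GFP. It ran from 8.1 to 10.8 in shANG8 and from 4.52 to 10.7 in shCtrl. Both ratios overlapped in both comparisons. None of the ratios was tested, and an exact test of 3 against 3 libraries cannot give a p under 0.1.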
